A study of Mus musculus with 2 samples.

Results

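Mitochondrial ribosomal protein genes were described in RNA of the whole mouse heart at embryonic day 12.5. Members were all protein-coding genes of the GENCODE M21 annotation with a symbol that begins with Mrpl or Mrps and a number. The rule gave 78 genes of the 55536 in the table, among 22028 protein-coding genes. By symbol, 49 belong to the large subunit (Mrpl) and 29 to the small subunit (Mrps). A further 5 processed pseudogenes carry such symbols and were not members.

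PolyA-selected RNA was sequenced in 2 libraries, labelled biological replicates 2 and 1 of a single group. Each came from hearts of B6NCrl embryos of age 12.5 days, male and female embryos pooled, with 10 ng of starting RNA. ERCC spike-ins, synthetic RNAs of known sequence, were added at 1000 times the single-cell amount, and fragments were made by Nextera tagmentation. There was no treatment, genotype or time course, and the labels give both libraries 1 donor identifier with separate biosamples, so their spread may be partly technical.

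The mitochondrial ribosome makes the few proteins encoded by mitochondrial DNA, which are core subunits of the respiratory chain and of ATP synthase. Its ribosomal RNAs come from mitochondrial DNA, while its proteins are encoded in the nucleus, made in the cytosol and imported. Part of them have counterparts in bacterial ribosomes, and others are found only in mitochondria. Heart muscle is rich in mitochondria and relies on their respiration.

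Expected counts on genes summed to 31394912 in replicate 2 and 34248993 in replicate 1. The tissue label was checked against marker genes. The 7 cardiomyocyte markers were at 2131 TPM or more (a level per length, scaled to the library) in replicate 2 and at 2237 TPM or more in replicate 1, and summed to 35251 TPM in replicate 2 and 34924 in replicate 1. All 6 erythroid, 4 endothelial and 4 mesenchymal markers were also above 1 TPM in both, so the libraries held blood, vessel and connective tissue RNA as well. The erythroid markers summed to 39668.6 TPM in replicate 2 and 44222.5 in replicate 1, above the cardiomyocyte sum in both. The mesenchymal markers summed to 1098 and 1146 TPM and the endothelial markers to 190 and 180 TPM, in replicates 2 and 1. In such bulk RNA, fewer cells of a type and less RNA per cell cannot be told apart. Of 7 hepatocyte markers, 6 were above 1 TPM in both libraries, and their sum was 64.2 TPM in replicate 2 against 231 TPM in replicate 1.

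Promoter sequence from RefSeq (build GRCm38.p6, from 250 bases before to 50 after the start) was matched by symbol for 69 of the 78 members. The unmatched members were Mrpl4, Mrpl13, Mrpl15, Mrpl19, Mrpl38, Mrpl54, Mrps28, Mrps34 and Mrps35. Where a symbol had more than 1 listed promoter, only the first was used. Among members this held for 3, Mrpl2, Mrpl48 and Mrps16, whose other promoters were not searched. Each window was searched on both strands for short sequences bound by 3 factors known as regulators of nuclear genes for mitochondrial proteins. These were GCGCATGC for NRF1, CCGGAAG for the ETS factors, which include GABP, and AAGATGGC for YY1. Matches of different motifs did not overlap in any member.

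The ETS sequence stood in 25 of the 69 member promoters (36.2%). It stood in 18.6% of the 9760 matched promoters of detected nuclear protein-coding genes. Over all 27025 symbols with a listed promoter, 1 promoter each, the share was 9.12%. The YY1 sequence stood in 12 (17.4%), against 4.82% and 2.88%. The NRF1 sequence stood in 8 (11.6%), against 5.63% and 2.80%. Of these 8 promoters, 7 were among the 43 of the large subunit and 1 among the 26 of the small subunit. Any of the 3 sequences stood in 37 member promoters (53.6%), against 26.6% of detected genes. Cytosolic ribosomal protein promoters held the ETS sequence at a share of 40.4% and the NRF1 sequence at 3.51%, of 57 matched. Promoters of nuclear respiratory chain subunits held them at 24.6% and 16.4%, of 61 matched. The YY1 share was 7.02% in the cytosolic ribosomal and 13.1% in the respiratory chain group. Any of the 3 sequences stood in 50.9% and 45.9% of these 2 groups, near the share of members. The median GC content of member promoters was 58.3%, against 61.3% for detected genes. ETS matches in members lay at a median of 16.5 bases before the start, and YY1 matches at a median of 16 bases after it. A match is a description of letters, and binding was not measured.

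The following stretches show a high member with an ETS match (Mrpl52), a member with ETS and NRF1 matches close together (Mrpl22), and a stalk protein gene with an NRF1 match alone (Mrpl10). They also show whole gaps between a member and a neighbour that starts in the opposite direction (Mrps27 with Ptcd2, Mrpl49 with Fau). Sequences run 5′ to 3′ on the member's strand, hold no annotated exon, and have the motif matches in capitals. On build GRCm38.p6, they lie at chr14:54426659-54426908 (plus strand, Mrpl52), chr11:58171414-58171660 (plus, Mrpl22), chr11:97041408-97041559 (plus, Mrpl10), chr13:99344706-99344785 (plus, Mrps27) and chr19:6057786-6057843 (minus, Mrpl49).
Mrpl52: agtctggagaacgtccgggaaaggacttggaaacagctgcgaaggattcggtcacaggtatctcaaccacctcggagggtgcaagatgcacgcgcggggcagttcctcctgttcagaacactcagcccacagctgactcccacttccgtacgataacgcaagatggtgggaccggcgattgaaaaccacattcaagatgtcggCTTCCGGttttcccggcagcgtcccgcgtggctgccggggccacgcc
Mrpl22: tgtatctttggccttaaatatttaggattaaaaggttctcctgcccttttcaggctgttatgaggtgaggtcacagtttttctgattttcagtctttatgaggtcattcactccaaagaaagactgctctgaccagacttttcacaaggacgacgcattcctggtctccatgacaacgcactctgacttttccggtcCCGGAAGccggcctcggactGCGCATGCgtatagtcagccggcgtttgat
Mrpl10: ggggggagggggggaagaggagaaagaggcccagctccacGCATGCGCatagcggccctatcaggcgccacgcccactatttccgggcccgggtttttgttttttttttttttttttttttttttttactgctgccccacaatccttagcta
Mrps27: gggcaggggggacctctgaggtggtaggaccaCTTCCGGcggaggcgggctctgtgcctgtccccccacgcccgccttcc
Mrpl49: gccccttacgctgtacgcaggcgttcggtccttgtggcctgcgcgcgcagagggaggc

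Mrpl52 had a further ETS match 3 bases after the RefSeq start. In Mrpl22 the ETS match began 53 bases and the NRF1 match 33 bases before the RefSeq start. The Mrpl49 stretch holds none of the 3 sequences, and its YY1 match began 17 bases after the start. The 25 members with an ETS match had a median level of 97.3 ± 1.14 TPM, and the 44 matched members without one had 63.6 ± 1.5 TPM (SD over 2 libraries). The 8 members with an NRF1 match had a median of 70.0 ± 1.81 TPM and the 61 without one 76.6 ± 1.34 TPM. These are descriptions of genes within the same libraries.

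RNA of every member was present. All 78 were detected, at 1 TPM or more in both libraries, against 56.6% of 22015 nuclear protein-coding genes. A level of 10 TPM in both was reached by 77 members, all but Mrpl23, against 37.7% of nuclear protein-coding genes. A level of 100 TPM in both was reached by 26 members (33.3%), against 6.09%. Members took 0.445% of gene counts in replicate 2 (95% Clopper-Pearson interval 0.443 to 0.447%) and 0.45% in replicate 1 (0.447 to 0.452%). These intervals cover counting error only. The large subunit held 0.291 ± 0.00262% and the small subunit 0.156 ± 0.000682% of gene counts (SD, n = 2).

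The large subunit had a median of 82.7 TPM in replicate 2 and 85.6 in replicate 1. The small subunit had a median of 74.3 TPM in replicate 2 and 71.3 in replicate 1. The log2 ratio of large to small medians was 0.21 ± 0.08 (SD, n = 2), which is 1.16-fold. The order was not stable, because the ratio became -0.09 ± 0.07 when members whose exons overlap another gene were left out. Within the subunits the levels spread far wider than this. The SD of log2(TPM + 1) over genes was 0.96 in the large subunit and 0.77 in the small subunit. The 90th percentile was 4.54 times the 10th in the large subunit and 3.63 times in the small subunit. The highest gene was 38.9 times the lowest in the large subunit and 11.3 times in the small subunit.

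**Figure D1:**
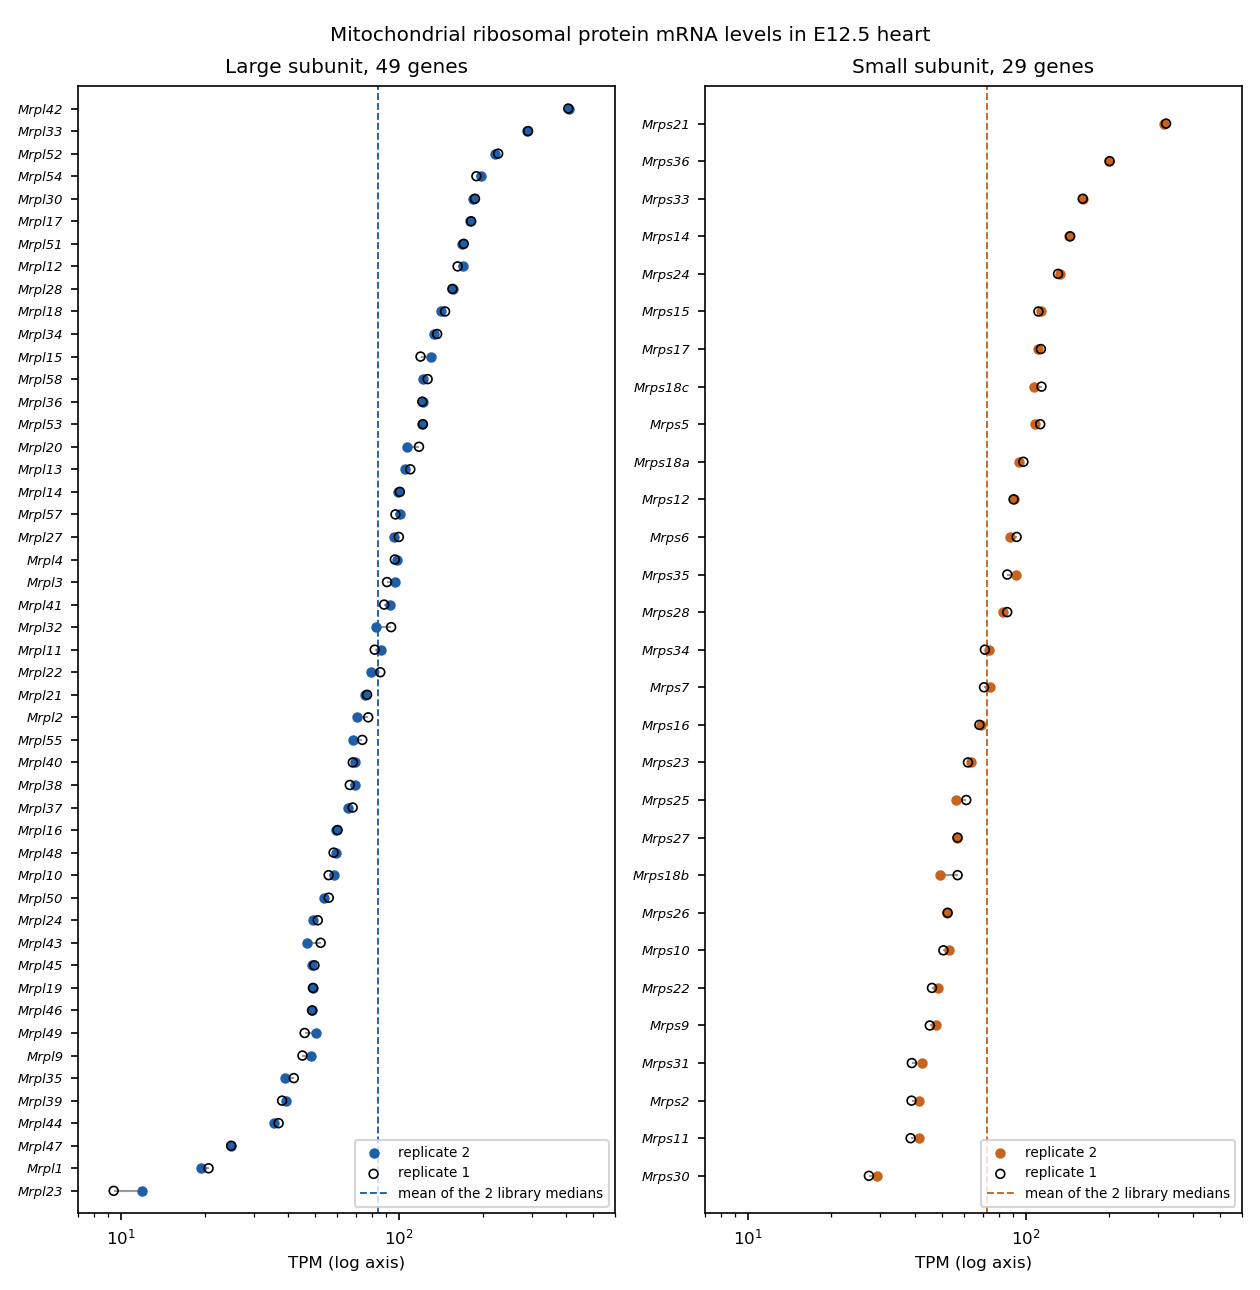
Each row is a member, ordered by its mean TPM (log axis) within the large (left, 49 genes) and small (right, 29 genes) subunit; filled points are replicate 2, open circles replicate 1, and dashed lines the mean of both library medians. Both points of a gene lie close together while genes range from 10.6 to 408 TPM in the large subunit and from 28.2 to 318 TPM in the small subunit.

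In the large subunit the highest level belonged to Mrpl42, whose product is found only in mitochondrial ribosomes. Mrpl42 (ENSMUSG00000062981.5, chromosome 10, 95480805 to 95501940, minus strand) had 409.6 TPM in replicate 2 and 406 in replicate 1. It ranked 266 among nuclear protein-coding genes. Next came Mrpl33, a small protein with a bacterial counterpart (chromosome 5, 31596935 to 31664384, plus strand), at 289.8 TPM in replicate 2 and 291 in replicate 1. Mrpl52, a mitochondria-specific protein, had 221 TPM in replicate 2 and 227 in replicate 1. These ranges did not overlap, so the order of these 3 genes was the same in both libraries. Mrpl54 had 197 TPM in replicate 2 and 189.9 in replicate 1. Mrpl30 had 184 TPM in replicate 2 and 188 in replicate 1. Mrpl17 had 181 TPM in replicate 2 and 182 in replicate 1. The order of these 3 genes was also the same in both. Over the whole order, the 2-library ranges overlapped in 24 of the 48 neighbouring pairs of the large subunit and in 13 of 28 of the small subunit.

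The lowest member of all was Mrpl23, which lies near the exit of the peptide tunnel (ENSMUSG00000037772.13, chromosome 7, 142532686 to 142540747, plus strand). It had 11.9 TPM in replicate 2 and 9.41 in replicate 1. Mrpl1, the protein of the mobile L1 stalk, had 19.5 TPM in replicate 2 and 20.7 in replicate 1. Mrpl47, also of the tunnel exit, had 24.8 TPM in replicate 2 and 24.9 in replicate 1. On the M21 annotation these 3 genes lay below the rest of the subunit, which began at Mrpl44. On the older M4 annotation this order was lost: Mrpl35 was lowest at a mean of 18.3 TPM, and Mrpl23 had a mean of 33.8 TPM, above Mrpl1, Mrpl11, Mrpl47 and Mrpl57. Mrpl44 had 35.4 TPM in replicate 2 and 36.9 in replicate 1. Mrpl39 had 39.3 TPM in replicate 2 and 38.0 in replicate 1, and Mrpl35 had 38.9 TPM in replicate 2 and 41.9 in replicate 1. The ranges of Mrpl39 and Mrpl35 overlapped.

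Functional sites of the large subunit were not at one level. Mrpl12, the stalk protein that recruits translation factors, had 170.4 TPM in replicate 2 and 163 in replicate 1. Mrpl10, which anchors it, had 58.2 TPM in replicate 2 and 55.8 in replicate 1. Mrpl11, at the stalk base, had 85.8 TPM in replicate 2 and 81.8 in replicate 1. Mrpl58, also known as a peptidyl-tRNA hydrolase that rescues stalled ribosomes, had 122 TPM in replicate 2 and 127 in replicate 1. These 4 genes differed from one another by more than the spread of the 2 libraries. Mrpl12 is known to sit in the particle in several copies, and most other members in a single copy.

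In the small subunit Mrps21, a short protein with a bacterial counterpart (ENSMUSG00000054312.6, chromosome 3, 95862634 to 95871519, minus strand), was highest at 315 TPM in replicate 2 and 319.8 in replicate 1. Mrps36 followed at 199 TPM in replicate 2 and 200.4 in replicate 1. Despite its symbol, its product is known as a part of the 2-oxoglutarate dehydrogenase complex and is not placed in the ribosome. Mrps33, a mitochondria-specific protein, had 161 TPM in replicate 2 and 160.4 in replicate 1. Mrps14 had 143 TPM in replicate 2 and 145 in replicate 1. Mrps24 had 133 TPM in replicate 2 and 131 in replicate 1, and Mrps15 had 114 TPM in replicate 2 and 111 in replicate 1. The 5 highest genes did not overlap one another in their 2-library ranges.

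On M21, Mrps30 was the lowest gene of small subunit symbol (ENSMUSG00000021731.10, chromosome 13, 118378381 to 118387252, minus strand), at 29.2 TPM in replicate 2 and 27.3 in replicate 1. On M4 it had a mean of 61.0 TPM and was no longer lowest. The lowest on M4 were Mrps31 (41.4 ± 2.56 TPM), Mrps2 (41.8 ± 1.73 TPM) and Mrps11 (41.9 ± 2.39 TPM). Their means differed by less than these SDs, so no order among them can be given. The proteins of Mrps30 and Mrps18a are found in the large subunit of the mammalian particle, whatever their symbols. Mrps11 had 41.5 TPM in replicate 2 and 38.5 in replicate 1. Mrps2 had 41.2 TPM in replicate 2 and 38.8 in replicate 1, and Mrps31 had 42.5 TPM in replicate 2 and 38.9 in replicate 1. The ranges of Mrps11, Mrps2 and Mrps31 overlapped. Mrps9 had 47.6 TPM in replicate 2 and 45.2 in replicate 1, and Mrps22 had 48.2 TPM in replicate 2 and 46.0 in replicate 1. With members placed by their position in the ribosome, 51 in the large and 26 in the small subunit, the SD of log2(TPM + 1) was 0.97 in the large and 0.72 in the small subunit.

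Mrps18a, Mrps18b and Mrps18c are related genes whose products occupy different sites of the ribosome. Mrps18c had 107 TPM in replicate 2 and 114 in replicate 1. Mrps18a had 94.5 TPM in replicate 2 and 98.1 in replicate 1. Mrps18b had 49.4 TPM in replicate 2 and 56.9 in replicate 1. Mrps18c was 2.08-fold and Mrps18a 1.82-fold the level of Mrps18b, with log2 ratios of 1.06 ± 0.08 and 0.86 ± 0.11 (SD, n = 2). The log2 ratio of Mrps18c to Mrps18a was 0.20 ± 0.03.

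By assigned origin, the 31 members listed as mitochondria-specific had a median of 62.7 ± 0.983 TPM. This class includes Mrps18a and Mrps18b, although they are related to Mrps18c, which was not placed in it. The 27 members shared by all ribosomes had 85.7 ± 0.141 TPM, and the 19 shared with bacteria alone had 97.9 ± 2.73 TPM. The log2 ratio of the mitochondria-specific median to that of all members listed with bacterial counterparts was -0.53 ± 0.05. Mean levels ran from 28.2 to 408 TPM in the mitochondria-specific class, from 10.6 to 186 TPM in the class shared by all ribosomes and from 40.4 to 318 TPM in the class shared with bacteria alone, so the classes overlapped widely. Ribosomal proteins of this particle without an Mrp symbol lay in the same range. Chchd1 had 181 TPM in replicate 2 and 185 in replicate 1, and Gadd45gip1 had 39.7 TPM in replicate 2 and 40.8 in replicate 1. Dap3, a GTP-binding protein of the small subunit, had 114 TPM in replicate 2 and 110.3 in replicate 1. Aurkaip1 and Ptcd3 lay between, at means of 102 and 90.3 TPM.

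Set beside other parts of mitochondrial gene expression, members stood between the machinery that serves the ribosome and the genes of the respiratory chain. The member median was 81.0 TPM in replicate 2 and 83.7 in replicate 1. The median of 77 cytosolic ribosomal protein genes was 474 TPM in replicate 2 and 471 in replicate 1, so that members were lower by 2.52 ± 0.04 on the log2 scale (5.73-fold). Against 76 entries for nuclear respiratory chain and ATP synthase subunits the log2 ratio was -2.70 ± 0.01 (6.49-fold lower). The symbol Atp5o stands on a pair of gene identifiers among these, of which one was listed at 0. Against 26 mitoribosome assembly factors members were higher by 2.13 ± 0.04, against 20 mitochondrial tRNA synthetases and related enzymes by 1.95 ± 0.05, and against 16 translation factors by 1.46 ± 0.08 (log2, SD, n = 2).

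Individual genes departed from these medians. Lars2, the mitochondrial leucyl-tRNA synthetase, was listed at 780.3 TPM in replicate 2 and 733 in replicate 1, above the value of every member. Whether all reads counted for Lars2 came from that gene was not tested. The next synthetase was Rars2, at 48.4 TPM in replicate 2 and 42.0 in replicate 1, and the lowest were Wars2 and Mars2 at means of 6.86 and 3.14 TPM. Among assembly factors C1qbp, a matrix protein, had 233 TPM in replicate 2 and 229 in replicate 1. It was followed by the helicase gene Dhx30 at a mean of 91.5 TPM and by Malsu1 at 49.4 TPM, and Trmt61b and Ybey were lowest at 9.60 and 5.45 TPM. Among translation factors Slirp, which stabilises mitochondrial mRNA, had 194 TPM in replicate 2 and 209.9 in replicate 1. The elongation factor genes Tufm and Gfm1 had means of 131 and 93.6 TPM, and Taco1 and Mtrf1 were lowest at 8.13 and 7.76 TPM.

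The mitochondrial rRNAs had 4363 TPM (mt-Rnr2) in replicate 2 and 4305 TPM in replicate 1, and 1045 TPM (mt-Rnr1) in replicate 2 and 1032 TPM in replicate 1. Their particles hold them in equal number, while the log2 ratio of mt-Rnr2 to mt-Rnr1 in these libraries was 2.06 ± 0.000871. The libraries were polyA-selected, and how fully mitochondrial RNAs were captured was not measured. The 13 mitochondrially encoded mRNAs had a median of 1612 TPM in replicate 2 and 1856 in replicate 1. Among known regulators of such genes, the 10 listed all lay above 10 TPM in both libraries. Mycn was highest at 58.9 TPM in replicate 2 and 58.7 in replicate 1, followed by the coactivator gene Ppargc1a at a mean of 41.0 TPM and by Gabpa, the ETS subunit of GABP, at 35.7 TPM. Nrf1 had 29.6 TPM in replicate 2 and 27.4 in replicate 1. Yy1 and Ppargc1b were lowest, at means of 13.6 and 13.3 TPM. In a list of mitochondrial DNA transcription and replication genes, Ssbp1, Tfam and Polg had means of 84.3, 48.3 and 30.3 TPM, and Twnk and Polg2 had 15.1 and 5.66 TPM.

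**Figure D2:**
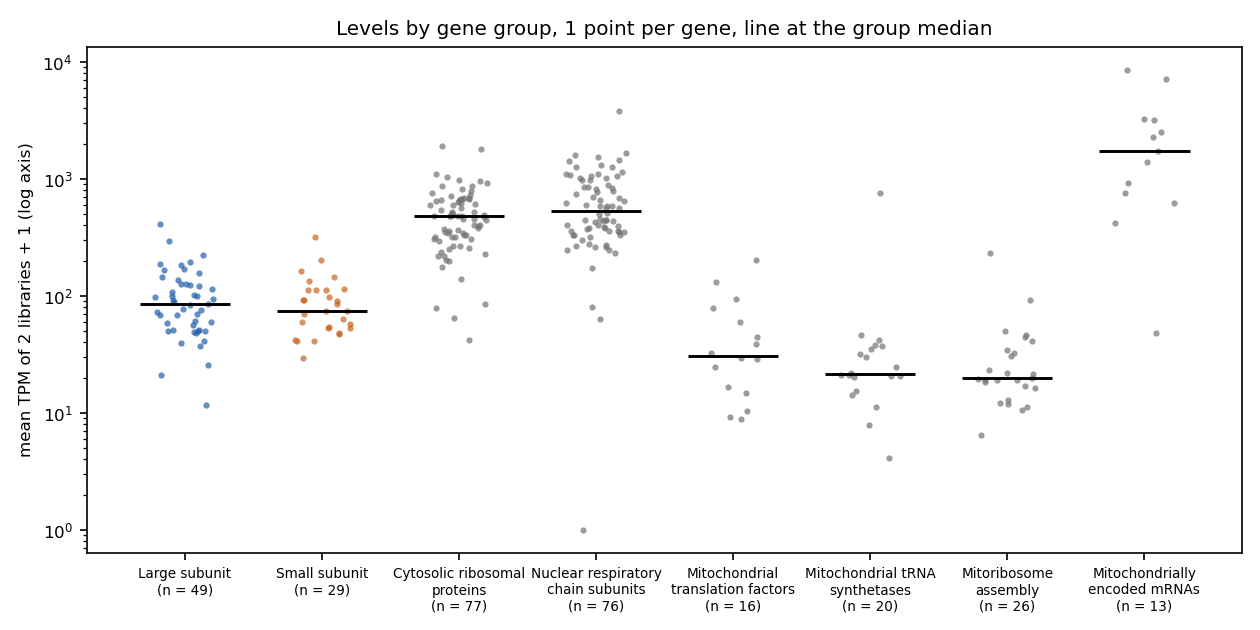
Each point is a gene, at its mean TPM over both libraries plus 1 (log axis), with a line at each group's median. Large and small subunit genes overlap almost fully, with medians below those of the cytosolic ribosomal protein genes, the respiratory chain genes and the mitochondrially encoded mRNAs, and above those of the translation factor, tRNA synthetase and assembly groups.

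Gene length went with the spread of levels. Members were short, with a median effective length (length less 99 bases in these tables) of 851 bases, against 2359 bases over 12455 detected nuclear protein-coding genes. Across the 78 members, Spearman's correlation of effective length with TPM was -0.76 in replicate 2 and -0.78 in replicate 1. Over the detected genes it was -0.28 in replicate 2 and -0.29 in replicate 1. Effective length is the divisor of TPM, so both axes share it, and genes of a library are not independent. The correlation of effective length with expected counts, which are not divided by length, was 0.04 in replicate 2 and -0.02 in replicate 1. In counts the members were closer together than in TPM. The SD of log2 values fell to 0.69 in the large subunit and 0.45 in the small subunit, and the highest count was 23.2 times the lowest in the large subunit and 3.59 times in the small subunit. Mrps21 and Mrps30, at the ends of the small subunit in TPM, had 2361 and 2105 expected counts in replicate 2 and 2705 and 2177 in replicate 1.

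**Figure D3:**
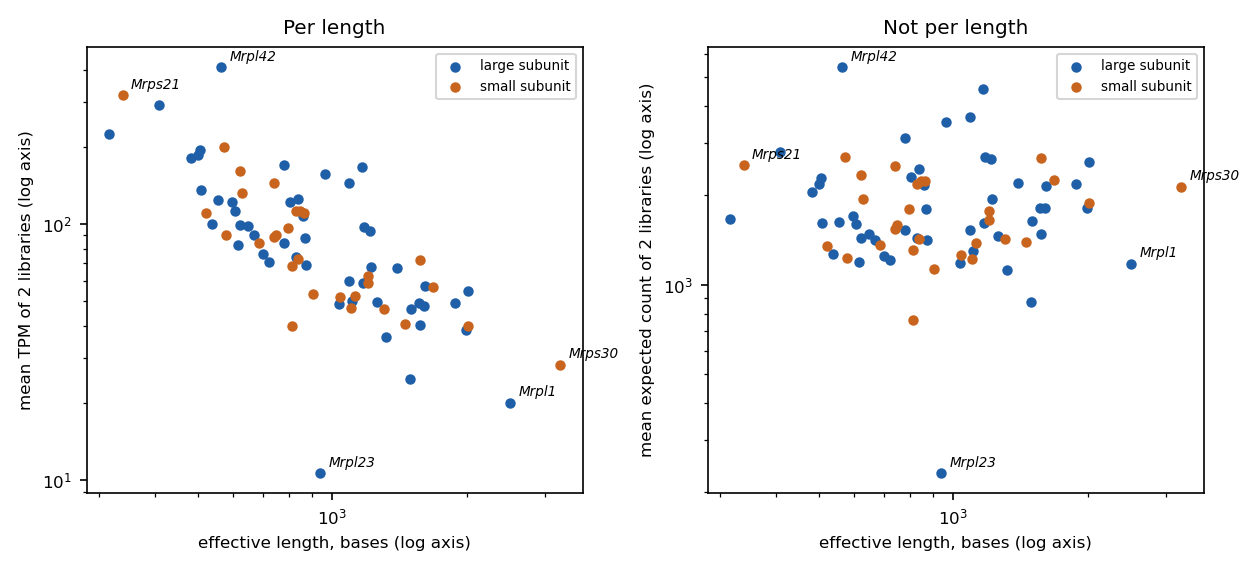
Each point is a member, plotted by effective length in bases (log axis) against mean TPM (left, log axis) and mean expected count (right, log axis), coloured by subunit. TPM falls with length while counts show no trend, and Mrpl23 lies below all others in both.

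The low value of Mrpl23 is uncertain. Mrpl23-ps1, a processed pseudogene on chromosome 2 (74591330 to 74591909), carried 1332 expected counts in replicate 2 and 1667 in replicate 1. Mrpl23 itself carried 229 in replicate 2 and 236 in replicate 1. The authors' posterior SD of its count was 9.82% of the count in replicate 2 and 8.94% in replicate 1, the highest of the members. Reads shared by the gene and its copy were split by the authors' counting, so the level of Mrpl23 cannot be set firmly. Without Mrpl23 the highest large subunit gene was 20.4 ± 0.971 times the lowest, Mrpl1, and the SD of log2(TPM + 1) was 0.88. That alternative was chosen after the data were seen.

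The tables were also deposited on an older annotation, M4, in which 77 members were matched by gene identifier and Mrpl33 was not. For 68 of them the mean TPM differed by less than 0.25 on the log2 scale. The 5 that differed most were Mrpl57, Mrpl11, Mrpl23, Mrpl35 and Mrps30. Mrpl57, a mitochondria-specific protein, had 100.7 TPM in replicate 2 and 97.1 in replicate 1 on M21, against 27.4 TPM in replicate 2 and 26.5 in replicate 1 on M4. Its expected counts were 1399 and 1485 on M21 in replicates 2 and 1, against 1301 and 1391 on M4, while its effective length was 623 and 619.7 bases on M21 against 2222 bases on M4. Mrpl11 likewise had 85.8 TPM in replicate 2 on M21 and 24.1 TPM on M4, with 1469 and 1431 expected counts. The level of Mrps30 went the other way, at 29.2 TPM in replicate 2 on M21 and 62.7 TPM on M4, with 2105 and 1996 expected counts. The log2 ratios of M21 to M4 were 1.88 for Mrpl57, 1.81 for Mrpl11, 1.14 for Mrpl35, -1.11 for Mrps30 and -1.67 for Mrpl23.

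**Figure D4:**
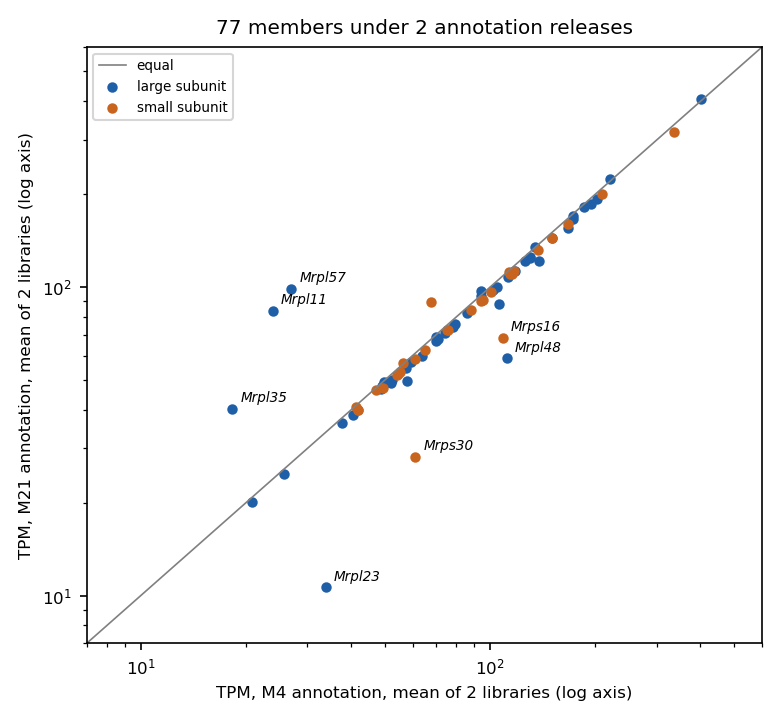
Each point is 1 of 77 members, with mean TPM over both libraries on the M21 annotation (vertical, log axis) against the M4 annotation (horizontal, log axis) and a line of equality. Most points lie on the line, and the 7 named genes lie farthest from it.

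Members differed in the transcript model with the highest TPM, a level per length in which short models weigh more than in counts. Transcripts annotated as protein_coding held 81.5 ± 0.332% of the TPM of the large subunit and 75.8 ± 0.695% of that of the small subunit, against 85.5 ± 0.0904% over all nuclear protein-coding genes (SD, n = 2). Models annotated as retained introns held 6.43 ± 0.0894% in the large and 12.3 ± 0.281% in the small subunit, against 7.09 ± 0.0158%. In expected counts they held 4.75% in the large and 10.2% in the small subunit. Such a model had the highest TPM in 3 small subunit genes, Mrps24, Mrps25 and Mrps26, at 73.5, 70.4 and 94.8% of the gene's TPM. In the large subunit this held for 1 gene, Mrpl57. In 15 members (19.2%) the leading model was not annotated as protein_coding, against 8.13% of detected nuclear protein-coding genes. In all 15 the leading protein_coding model was longer, with a median of 2999 bases against 707 bases for the leading model. In 6 of the 15, protein_coding models together held more than 50% of the gene's expected counts, up to 81.1% in Mrpl47 and 80.2% in Mrpl19. Mrps26 had 94.8 ± 0.225% of its TPM on a retained intron model of 1057 bases and 5.21% on its protein_coding model of 4278 bases. In Mrps14 a model annotated for nonsense-mediated decay, of 674 bases, held 90.7 ± 0.859%. In Mrpl57 a retained intron model of 519 bases held 91.5 ± 0.0819%, while the protein_coding model of 2877 bases held 8.53% of TPM and 38.1% of counts. These biotypes are labels of the annotation, and whether these RNAs make protein was not measured.

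Of the 75 members with more than 1 model, the leading model held the smallest share in Mrps5 (24.9 ± 4.37%), Mrpl24 (43.0 ± 4.90%) and Mrpl55 (44.0 ± 1.77%). In Mrps5 the leading model differed between the libraries. The share was largest in Mrpl10, where a single model of 1708 bases held all of the TPM, in Mrps22 (99.9 ± 0.0196%), in Mrpl46 (99.8 ± 0.291%) and in Mrpl54 (99.2 ± 0.00516%). Mrpl42 had 92.4% of its TPM on Mrpl42-203, a protein_coding model of 661 bases.

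Many members share their start region with a neighbour. A protein-coding gene on the opposite strand started within 1000 bases, pointing away or overlapping head to head, for 33 of 78 members (42.3%), against 16.2% of detected protein-coding genes. The share was 24 of 49 in the large and 9 of 29 in the small subunit. Mrps11 and Mrpl46, a small and a large subunit gene on chromosome 7, form such a pair, and their exons overlap by 173 bases. Mrps11 had 41.5 TPM in replicate 2 and 38.5 in replicate 1, against 48.8 and 48.7 TPM of Mrpl46, a log2 ratio of -0.29 ± 0.07. Mrps12, a decoding site protein, starts 172 bases from Sars2, the mitochondrial seryl-tRNA synthetase, which had 21.2 TPM in replicate 2 and 18.2 in replicate 1 against 90.7 and 90.4 TPM of Mrps12. Mrpl43 is paired with Twnk, the mitochondrial DNA helicase, at 14.9 TPM in replicate 2 and 15.3 in replicate 1. Mrpl36 and Mrpl47 are paired with the complex I genes Ndufs6 and Ndufb5, at 440.1 and 381 TPM in replicate 2 and 455 and 366 TPM in replicate 1. Members lie on 17 chromosomes, with 11 on chromosome 11, 8 on chromosome 17 and 7 on chromosome 6.

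Exons of 33 members overlapped another annotated gene, and for 20 of them this was a protein-coding gene on the opposite strand. The use of strand in counting is not given in the sources used here, so reads of such partners cannot be told apart with certainty. For Mrpl18 with Tcp1, Mrpl36 with Ndufs6, Mrpl47 with Ndufb5 and Actl6a, Mrpl48 with Rab6a and Mrps11 with Mrpl46, the partner was the more abundant of the pair in both libraries.

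In expected counts, differences between the libraries were small for all members. The TPM of Mrpl23 differed more than its counts, at 11.9 in replicate 2 against 9.41 in replicate 1. An exact conditional binomial test of 17970 genes, with Benjamini-Hochberg adjustment over all of them, called 260 genes (1.45%) at an adjusted p under 0.05 and at least a 2-fold ratio of replicate 2 to replicate 1. None of the 78 members was called, nor with DESeq2 size factors or total counts in place of the TMM scaling. All 78 had an absolute log2 ratio of scaled counts under 0.25, with a median of -0.03 and a range from -0.21 to 0.10. Among 10933 genes with at least the lowest member count, 96.1% lay under 0.25. Only 7 of these 10933 genes were called at the 2-fold rule, so the lack of calls does not set members apart. On adjusted p alone, 3 members were lower in replicate 2, or 3.85% of those tested, against a background of 5.59% lower over all genes, and none was higher, against 4.12%. Without adjustment 12 members lay under a p of 0.05 (15.4%), against 22% of all genes. Of the 10933 genes, 11.9% passed on adjusted p alone in either direction, and 25.8% lay under 0.05 without adjustment. On the M4 annotation the same 3 members were lower on adjusted p alone and Mrpl23 was higher, with a log2 ratio of 0.39, and 76 of 77 members lay under 0.25. This test compares 2 libraries by counting error alone.

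The 3 members were Mrpl32, Mrpl20 and Mrps18b. Mrpl32, whose maturation by the m-AAA protease is known to precede its assembly, had 1620.0 expected counts in replicate 2 and 1982 in replicate 1. Its log2 ratio was -0.18 (95% interval -0.27 to -0.08), with an adjusted p of 0.00571 by the exact binomial test. Mrpl20 had 1441 expected counts in replicate 2 and 1772 in replicate 1, a log2 ratio of -0.18 (-0.29 to -0.08) and an adjusted exact binomial p of 0.00691. Mrps18b had 1004 expected counts in replicate 2 and 1256 in replicate 1, a log2 ratio of -0.21 (-0.33 to -0.09) and an adjusted exact binomial p of 0.0114. Next was Mrpl22 at -0.15. The highest log2 ratios were 0.10 for Mrps31, 0.09 for Mrps35, 0.07 for Mrpl23 and 0.07 for Mrpl9, and their intervals all included 0. All 7 hepatocyte markers were called lower in replicate 2, with log2 ratios from -2.54 to -1.24. All 6 erythroid markers had lower values in replicate 2, 5 of them on adjusted p alone, with a median log2 ratio of -0.18. Of 4 mesenchymal markers 3 were lower on adjusted p alone, with a median of -0.12 over the 4. Of 4 endothelial markers none passed, and of 7 cardiomyocyte markers 3 were lower and 3 higher. The part of these cell types in the members' differences was not tested.

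**Figure D5:**
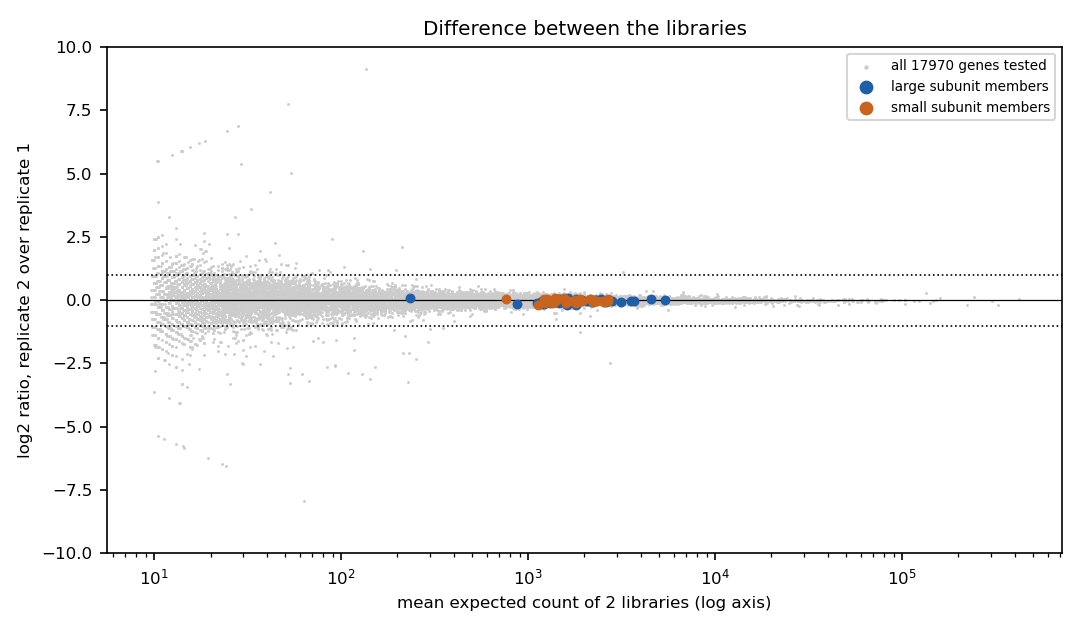
Each point is a gene, with its mean expected count over both libraries (log axis) against the log2 ratio of replicate 2 to replicate 1; members are coloured by subunit, other tested genes are grey, and dotted lines mark 2-fold. All 78 members lie between -0.21 and 0.10, inside the band of genes of similar count.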

How the data were processed

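For both libraries the authors deposited tables of genes and of transcripts, made on the M21 and on the older M4 annotation of mm10, per a text file deposited with each sample. The deposited expected count is an estimated number of reads per gene, in which ambiguous reads are shared out. The deposited TPM and FPKM values are scaled by effective length, and TPM to a total over all rows, spike-ins included, per the file headers and values. The authors' posterior SD of the count measures uncertain assignment. How reads were aligned and counted, with which versions and whether by strand, is not given in the sources used here.

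Gene identifiers of the M21 table were matched to GENCODE M21. The 26345 rows that were not genes (spike-ins among them) held 3.63% of counts in replicate 2 and 3.58% in replicate 1 and were left out of library totals. Members and lists were chosen with earlier results of these data known. Levels are means ± SD of both libraries, and spread used log2(TPM + 1).

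The 2 libraries were set against each other gene by gene in an exact binomial test conditional on the summed count (two-sided, smaller tail doubled), on expected counts rounded to whole numbers and scaled by the TMM method of edgeR 4.0.16. The test took genes whose counts in both libraries summed to 20 or more, and ratios had 0.5 added to each scaled count. The test was checked on simulated counts that held counting error alone, so spread between libraries beyond that was not part of the check. Alternatives were the size factors of DESeq2 1.42.0, total counts, other filters, value columns and member sets. Values were named by rule: the 6 highest and 6 lowest genes of each subunit, the extremes of each comparison, and the 3 highest and 2 lowest genes of each related list. Genes of functional sites, and the extra genes in the paragraphs on neighbours, were named after their values were seen. Python 3.11.15, scipy 1.17.1 and R 4.3.3 were used.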

Additional observations from a re-analysis of the deposited data

Results flagged for a closer look

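Processed pseudogenes with a member's symbol lie outside the comparisons, and 3 of them carried more than 3 expected counts, the limit that a count of 0 allows, in both libraries. Mrpl23-ps1 had a mean of 1499.8 expected counts, Mrps36-ps1 had 15.8 and Mrpl48-ps had 11.4. The posterior SD of the Mrpl23-ps1 count was 22.5 counts in replicate 2 and 21.1 in replicate 1. On the M4 annotation Mrpl23-ps1 had 106 TPM in replicate 2 and 129 in replicate 1. Whether these reads came from the pseudogenes or from their parent genes was not tested.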

How the results depend on the processing

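No paired analysis was possible because the design has a single group of 2 libraries. With 2 libraries, leaving out 1 gives the other's value and is no test of stability: without replicate 1 and without replicate 2, the medians ranged from 82.7 to 85.6 TPM (large) and from 71.3 to 74.3 TPM (small), and the large to small log2 ratio from 0.16 to 0.26. Without the 33 members whose exons overlap another gene, that ratio turned to -0.094, the small median was 89.9 TPM, the SDs of log2 TPM were 1.06 (large) and 0.82 (small), the log2 ratios to cytosolic ribosomal and respiratory chain genes were -2.46 and -2.64, and 45 members were left, all detected; 33 fewer genes enter by construction. On the M4 table the small median was 75.8 TPM, the small SD 0.74 and the ratio to cytosolic ribosomal genes -2.57. Posterior mean TPM gave medians of 82.0 (large) and 70.7 (small) and a large SD of 0.95. FPKM gave medians of 58.1 and 50.2, on its own scale. With subunits by place the small SD was 0.72, and with a pseudocount of 0.1 the large SD was 0.98. With no fold threshold 3 members were called; with DESeq2 size factors, total counts, no count filter or the M4 table none was at the 2-fold rule, while on adjusted p alone the M4 table gave 3 lower and 1 higher (Mrpl23). Over all rows of the table the members' share was 0.431%. Added after seeing the data, leaving out Mrpl23 gave a large SD of 0.88. Expected counts gave SDs of 0.69 (large) and 0.45 (small) and a large to small log2 ratio of 0.034. TPM of protein_coding transcripts alone gave medians of 60.5 (large) and 50.2 (small), SDs of 1.41 and 1.45, and log2 ratios of -2.81 and -2.88 to cytosolic ribosomal and respiratory chain genes. In these last SDs the small subunit was no longer the narrower one. Of 77 single members, 70 lay within 1.5 times their level on M4, and all 78 did with posterior mean TPM. The causes were not tested beyond these constructions. With 2 libraries of 1 group, spread among embryos is not measured, and levels of different genes carry length and annotation effects that both libraries share.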
